A study of Mus musculus with 74 samples.

Results

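The strong constant distal contacts are the promoter contacts that were present at a high score in every condition measured in HPC-7 cells, a mouse haematopoietic progenitor line. Contacts were read by promoter capture Hi-C, in which chromatin is cut with the restriction enzyme HindIII, joined ends are ligated, and ligation products that hold a promoter fragment are enriched by hybridisation to capture beads. A contact is a pair of fragments, a captured fragment and its other end, with the authors' interaction score. A pair was a member when both fragments lay on the same chromosome, their midpoints were 50000 to 1000000 bp apart, the other end was not itself a captured fragment, and the score was at least 10 in each of 3 lists. There were 2891 such pairs of 246363 pairs listed anywhere. They were 1.92% of the 150733 distal pairs of that distance in any list, and 12.45% of the 23222 distal pairs found in all 3 lists (exact binomial 95% interval 12.03% to 12.88%). The members were chosen by their scores in the 3 lists and their distance, so every score given here is a description.

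The Ery shStag2 list came from cells carrying a doxycycline-inducible short hairpin RNA against Stag2, and the Ery Luc list from cells carrying the control hairpin against luciferase. Both were kept with erythropoietin (EPO) at 4 U/l and stem cell factor (SCF) at 20 ng/ul, with doxycycline for 72 h, apart from 1 Ery Luc library labelled 73 h. The HPC list came from untransduced progenitors with SCF at 100 ng/ul, with no hairpin, doxycycline or EPO named for it. It therefore differs from both Ery lists in transduction as well as in stage, and these cannot be told apart. Each list pools 2 libraries, and the labels do not say whether these were separate cultures. There is 1 list per condition and no replicate check, so no test between conditions was made. The RNA tables were not used here, so neither the Stag2 level nor the markers of the cells were checked. Sequencing depth is not given in the sources used here, and intervals cover counting error only.

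Distal contacts bring a promoter near sequence that lies far away on the same chromosome. Cohesin, a ring-shaped complex with either of the subunits STAG1 and STAG2, extrudes chromatin into loops, and CTCF bound at its motif can hold loop ends in place. Enhancers and silencers act on promoters through such proximity, and some contacts are present before a gene is switched on. In erythroid differentiation many progenitor genes are turned off while genes for haem, haemoglobin and the red cell skeleton are turned on.

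The members sat on 992 captured fragments, 4.72% of the 21022 captured fragments in the lists, and ended on 2465 different other ends. They were concentrated. A single contact was found on 439 of these fragments (44.25%), whereas 49 fragments with 10 or more contacts held 720 pairs, or 24.9% of all. Protein-coding genes whose annotated start or end lies on one of these fragments numbered 936, which is 5.6% of the 16720 genes on captured fragments. No protein-coding gene start or end, and no non-coding gene start, was found on 155 of the 992 fragments. Of these 155, 80 lay inside a protein-coding gene. Ends of non-coding genes were not searched.

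Promoter sequences from RefSeq (GRCm38.p6, the same assembly as the mm10 build of the lists, per the submitters' processing notes) were matched by position to the captured fragments. This gave 802 promoters of 696 genes with a constant contact and 14519 promoters of 12773 genes on the other captured fragments. Each window covers 250 bases before and 50 bases after a gene start. The first 3 sequences belong to the 3 captured fragments with the most constant contacts and differ in base composition. The last is the promoter with the CTCF core whose fragment had the most contacts among those with that core. Capitals mark the GC box (GGGCGG on either strand) in the first 3 and the CTCF core (CCNNNAGGNGGC on either strand) in the last. All run 5′ to 3′ on the strand of the gene.
Spred1, chr2:117120821-117121120, plus strand: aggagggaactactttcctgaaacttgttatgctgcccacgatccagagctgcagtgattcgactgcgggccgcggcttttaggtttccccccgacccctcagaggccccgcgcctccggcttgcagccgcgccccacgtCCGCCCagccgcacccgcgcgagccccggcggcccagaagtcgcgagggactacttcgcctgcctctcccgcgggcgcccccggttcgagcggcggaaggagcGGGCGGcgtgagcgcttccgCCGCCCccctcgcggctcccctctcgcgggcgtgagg
Irf2bp2, chr8:126593937-126594236, minus strand: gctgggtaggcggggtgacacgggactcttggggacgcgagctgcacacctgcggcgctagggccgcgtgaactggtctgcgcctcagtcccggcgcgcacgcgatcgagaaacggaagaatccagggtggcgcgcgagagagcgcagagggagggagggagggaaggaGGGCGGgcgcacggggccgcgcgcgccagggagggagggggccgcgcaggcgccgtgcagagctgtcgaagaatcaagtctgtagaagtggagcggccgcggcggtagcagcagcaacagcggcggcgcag
Zpbp, chr11:11462370-11462669, minus strand: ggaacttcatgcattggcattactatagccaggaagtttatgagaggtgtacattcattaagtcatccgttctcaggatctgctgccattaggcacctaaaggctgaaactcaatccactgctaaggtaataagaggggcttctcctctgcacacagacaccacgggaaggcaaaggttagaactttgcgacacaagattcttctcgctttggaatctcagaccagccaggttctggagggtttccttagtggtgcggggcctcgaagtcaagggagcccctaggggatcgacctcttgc
B3gnt7, chr1:86302971-86303270, plus strand: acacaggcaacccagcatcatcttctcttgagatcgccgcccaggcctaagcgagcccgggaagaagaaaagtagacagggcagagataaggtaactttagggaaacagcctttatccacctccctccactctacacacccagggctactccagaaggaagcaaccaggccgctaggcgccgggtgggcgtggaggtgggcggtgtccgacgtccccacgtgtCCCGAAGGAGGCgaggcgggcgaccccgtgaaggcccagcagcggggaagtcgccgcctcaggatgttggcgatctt

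The Spred1 promoter held 3 GC boxes at 72.33% G and C, the Irf2bp2 promoter 1 at 71.67%, and the Zpbp promoter none at 50%. GC boxes, the motif of SP and KLF family factors, were present in 62.72% of the promoters with a constant contact (503 of 802, interval 59.27% to 66.08%) and in 53.17% of the other captured promoters (52.36% to 53.99%). The share over all captured promoters was 53.67%. The CTCF core was present in 6.86% (55 of 802, 5.21% to 8.83%) and in 4.70% (682 of 14519, 4.36% to 5.05%), with 4.81% over all. The ETS core CGGAAG was found in 28.55% and 24.49%, with 24.7% over all. The GATA motif AGATAA was found in 8.48% and 8.76%, with 8.75% over all. The CCAAT box (CCAAT) was found in 36.16% and 37.68%, with 37.6% over all. Median G and C content was 60% and 58.67%. The higher shares of GC boxes and of CTCF cores thus came with slightly higher G and C content, whose part was not tested. All motifs were read on both strands, and the CTCF core and the GC box can overlap. A match is only a run of letters, and windows of 1 gene can overlap.

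The CTCF core has a direction, which made it possible to ask whether contacts lay on the side to which the letters point. Among 44 captured fragments with cores of 1 direction, 51 of 100 constant contacts lay on that side (51%, 40.8% to 61.14%). All contacts lay on that side for 23 fragments and on the opposite side for 21. The weaker contacts described next gave 51.97% of 785. The B3gnt7 core points towards higher coordinates, while all 11 constant contacts of that fragment lay at lower coordinates.

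Distance and surroundings were compared with the other distal contacts, which were divided into 20331 pairs listed in all 3 lists but under 10 in at least 1, called weaker contacts here, and 5256 pairs at 10 or more in at least 1 list and missing from at least 1, called changing contacts. The constant contacts spanned a median of 198.8 kb (interquartile range 130.1 to 301.9 kb), against 181.3 kb (115.5 to 280.7 kb) for the weaker and 269.5 kb (164.7 to 428.8 kb) for the changing contacts. Spans over 500 kb made up 5.60% of constant contacts (4.79% to 6.51%), 5.43% of weaker contacts (5.12% to 5.75%) and 17.92% of changing contacts (16.89% to 18.99%). Constant contacts were thus close in span to the weaker set, and shorter than the changing set. Among all distal pairs in any list, the constant share was highest from 100 to 200 kb, at 2.39% of 43410, and lowest from 500 to 1000 kb, at 0.82% of 19731.

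**Figure D1:**
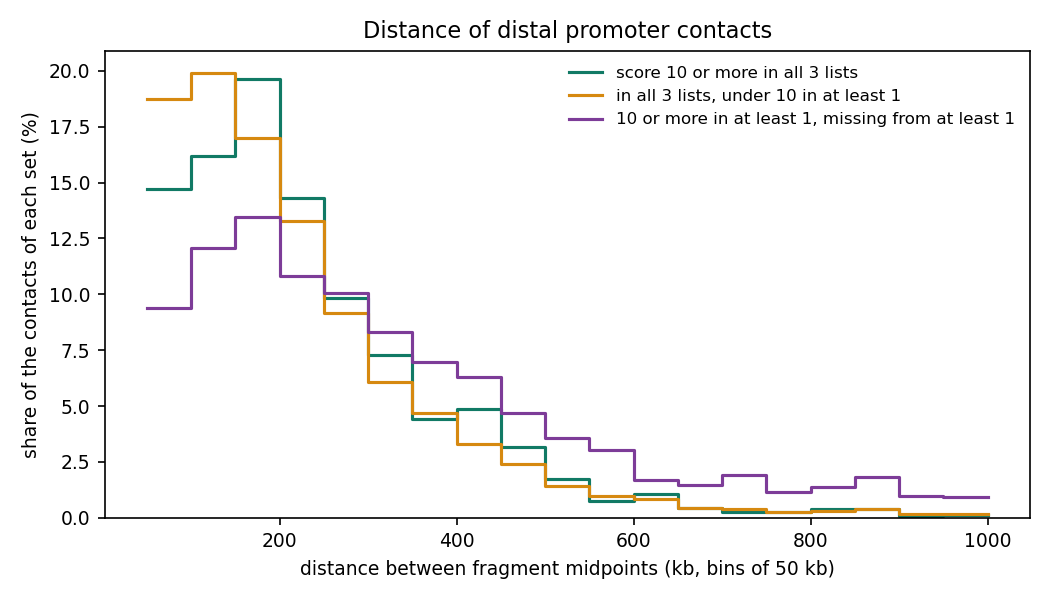
Distance between the midpoints of the captured fragment and the other end, in bins of 50 kb, as the share of each set of distal contacts. The set with a score of 10 or more in all 3 lists (green, 2891 pairs) has 5.60% of its pairs over 500 kb, against 17.92% of the set missing from at least 1 list (purple, 5256 pairs).

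The scores of members were spread alike in the 3 lists, with medians of 14.95 in Ery shStag2, 14.42 in Ery Luc and 15.01 in HPC and highest scores of 46.89, 50.72 and 53.92 in the same lists. Only 190 pairs reached 20 in every list, and 29 reached 30. Across members, Spearman's rho between scores was 0.53 for Ery shStag2 and Ery Luc, 0.39 for Ery shStag2 and HPC, and 0.41 for Ery Luc and HPC (n = 2891 pairs, which share captured fragments and lists). The ranks of members were thus shared only in part, and most between the Ery lists.

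Members made up 31.07% of the 9304 distal pairs at 10 or more in Ery shStag2, 35.46% of 8153 in Ery Luc and 30.99% of 9328 in HPC. Of 3963 pairs at 10 or more in both Ery Luc and HPC, 72.95% also reached 10 in Ery shStag2 (71.54% to 74.33%), 25.36% were listed lower there, and 67 (1.69%) were missing. Of 4101 pairs at 10 or more in both Ery shStag2 and HPC, 70.5% reached 10 in Ery Luc and 81 (1.98%) were missing. Of 4333 pairs at 10 or more in both Ery lists, 66.72% reached 10 in HPC and 272 (6.28%, 5.57% to 7.04%) were missing. Pairs that were strong in 2 lists were thus rarely absent from the third, and absent most often when the third was the HPC list. That list was also the shortest, with 71835 distal pairs against 81011 in Ery shStag2 and 75773 in Ery Luc. The part of list length in this difference was not tested.

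Most constant contacts were part of a wider stretch. A directly adjacent other-end fragment was listed with the same captured fragment in all 3 lists for 92.18% of constant contacts (91.14% to 93.14%), against 58.55% of weaker contacts (57.87% to 59.23%) and 38.13% of changing contacts (36.81% to 39.46%). Adjacent fragments share ligation products of 1 region, and a neighbour can itself be a member. The 3 sets were also defined by score and by being listed, and how far that sets the order of these shares was not tested. Joined with their neighbours, the 2891 pairs formed 1812 stretches, of which 547 held 2 or more adjacent fragments and 1626 pairs. The fragment with the highest score of a stretch was the same in all 3 lists in 198 of these 547 (36.2%, 32.16% to 40.38%). The longest stretch by fragments had 15 in 60.08 kb on chromosome 10. The highest-scoring fragment of a stretch was the same in Ery shStag2 and Ery Luc in 321 of the 547, and in Ery Luc and HPC in 285.

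Contacts of a captured fragment usually lay on 1 side of it. Of the 49 fragments with 10 or more constant contacts, 43 had them all at higher or all at lower coordinates (87.76%, 75.23% to 95.37%), against 331 of 503 fragments with 10 or more weaker contacts (65.81%, 61.48% to 69.95%) and 11 of 15 with 10 or more changing contacts. With 2 to 4 contacts the shares were 96.48% of 398, 88.79% of 1819 and 87.7% of 984. Where the gene starts of a fragment shared 1 strand, 51.77% of 1586 constant contacts lay upstream of the start (49.27% to 54.25%), against 50.54% of weaker and 50.19% of changing contacts. Upstream and downstream contacts were thus about equal in number in every set.

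Other ends of constant contacts lay outside every protein-coding gene in 45.76% of cases (43.93% to 47.6%), against 35.68% of weaker contacts (35.03% to 36.35%) and 36.78% of changing contacts (35.47% to 38.1%). Inside the captured gene itself lay 2.91%, 4.48% and 3.25%. No whole protein-coding gene lay between the ends in 30.37% of constant contacts (28.7% to 32.08%), against 27.19% of weaker and 20.7% of changing contacts. An other end that was shared with another captured fragment of the same set was found for 26.22% of constant contacts (24.62% to 27.86%), against 39.84% of weaker and 16% of changing contacts, a share that grows with the size of the set. Constant contacts thus ended outside protein-coding genes more often than either other set, with intervals that did not overlap. No test was made, since contacts of 1 fragment are not independent. Other ends overlapping a long non-coding RNA gene made up 13.39% of constant, 11.65% of weaker and 10.56% of changing contacts. A fragment is called gene-free below where it overlaps no protein-coding gene.

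Chromosomes differed in their constant share. Chromosome 17 held 337 members, 3.36% of its 10019 distal pairs (3.02% to 3.74%), and chromosome 12 held 193, or 3.18% (2.75% to 3.65%). Chromosome 8, at 2.43% (2.09% to 2.82%), and chromosome 1, at 2.29% (2.04% to 2.57%), also had intervals above 1.92%. Members were clustered, with 44 of the 173 on chromosome 8 on 4 captured fragments from 126 to 127 Mb. On chromosome 12, 46 lay on 5 captured fragments from 69 to 70 Mb, and on chromosome 1, 32 on 5 from 86 to 87 Mb. The shares of these chromosomes outside those windows were not computed, and contacts of 1 fragment are not independent. The lowest shares were 0.70% on chromosome 18 (0.46% to 1.02%), 1.04% on X (0.74% to 1.43%), 1.06% on chromosome 16 and 1.07% on chromosome 6. The 1 Mb window with the most members was chromosome 17 from 35 to 36 Mb, in the major histocompatibility complex, with 66 members on 20 captured fragments, 8.72% of its 757 distal pairs. From 33 to 38 Mb the share was 5.21% (4.25% to 6.32%), and in the rest of the chromosome 2.94% (2.59% to 3.33%). The rest of chromosome 17 was thus also above 1.92%, but its members were clustered too. From 15 to 16 Mb, 35 lay on 5 captured fragments, from 17 to 18 Mb 31 on 3, and from 66 to 67 Mb 31 on 4. The share of chromosome 17 without these windows was not computed.

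**Figure D2:**
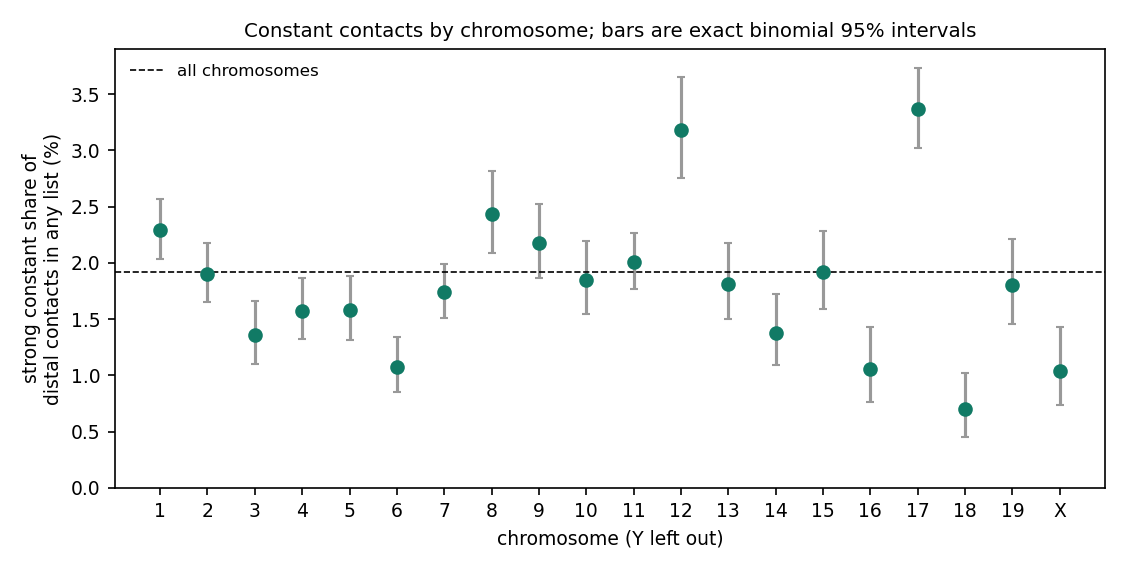
Share of the distal contacts of each chromosome that were strong in all 3 lists, with exact binomial 95% intervals for counting error only. The intervals of chromosomes 17, 12, 8 and 1 lie above the dashed share of all chromosomes (1.92%), and chromosome 18 is lowest at 0.70%. Chromosome Y, with 2 members, is left out.

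The captured fragment with the most constant contacts held the start of Spred1, an inhibitor of Ras and MAP kinase signalling (chr2:117119733-117123014). Its 33 contacts lay 70.08 to 221.4 kb away at lower coordinates, outside every protein-coding gene, in 10 stretches. Their scores had a lowest, median and highest value of 12.01, 17.58 and 35.96 in Ery shStag2, 10.29, 16.53 and 37.24 in Ery Luc, and 12.69, 21.62 and 49.88 in HPC. The fragment had 51, 51 and 56 listed distal contacts in these lists, 43 of them in all 3. Those at 10 or more numbered 34, 39 and 41, so most Spred1 contacts were strong in every list.

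Irf2bp2, a transcriptional co-repressor that binds IRF2, followed with 30 contacts of its fragment (chr8:126590334-126595379). They reached 72.09 to 338.2 kb, 29 at higher coordinates and 1 at lower. Median scores were 15.19 in Ery shStag2, 14.76 in Ery Luc and 15.96 in HPC. Nfkbia, which encodes the inhibitor that holds NF-kappaB in the cytoplasm, had 20 contacts 82.41 to 182 kb away at lower coordinates. They ended partly in Prorp and in the proteasome gene Psma6, with median scores of 13.19, 15.54 and 16.19 in Ery shStag2, Ery Luc and HPC. Ptprj, a receptor tyrosine phosphatase of blood cells, had 18 contacts towards the nuclear pore gene Nup160, with median scores of 15.33, 13.46 and 16.4 in the same lists. All of the Nfkbia and Ptprj contacts lay on 1 side of the captured fragment.

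A reciprocal pattern was found at Ikzf1, which encodes the lymphoid and erythroid zinc finger factor IKAROS. The fragment at the start of Zpbp, a gene for a sperm acrosome protein (chr11:11460532-11463278), had 25 contacts 231.5 to 513 kb away, and their other ends fell among Ikzf1, Fignl1, Ddc and Grb10. A captured fragment inside Ikzf1 (chr11:11695655-11703322) had 22 contacts 127.4 to 239.9 kb away in the opposite direction, partly in Zpbp and Spata48 and partly in gene-free sequence. The 2 captured fragments were also listed with each other, over 237.6 kb, at scores of 19.59 in Ery shStag2, 23.09 in Ery Luc and 24.29 in HPC. Median scores of the Zpbp contacts were 16.54, 15.97 and 17.3 in Ery shStag2, Ery Luc and HPC, and those of the fragment inside Ikzf1 were 14.98, 17.09 and 18.59. Each of the 2 captured fragments thus contacted the surroundings of the other. The Zpbp contacts lay from 11691308 to 11975311 and those of the fragment inside Ikzf1 from 11458567 to 11575212, so the 2 stretches did not overlap.

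Of the 10 fragments with the most contacts, the others were those of Lix1 with 22, of 9130023H24Rik, Armc5 and Tgfb1i1 with 19, of Car2 with 18, and 1 inside Mcph1, a gene of chromosome condensation, with 19. The contacts of the Armc5 and Tgfb1i1 fragment fell in a near group and a far group, up to 487.7 kb away in Inpp5f and Mcmbp. Of the 10 fragments, 9 had every contact on 1 side, Irf2bp2 being the exception.

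**Figure D3:**
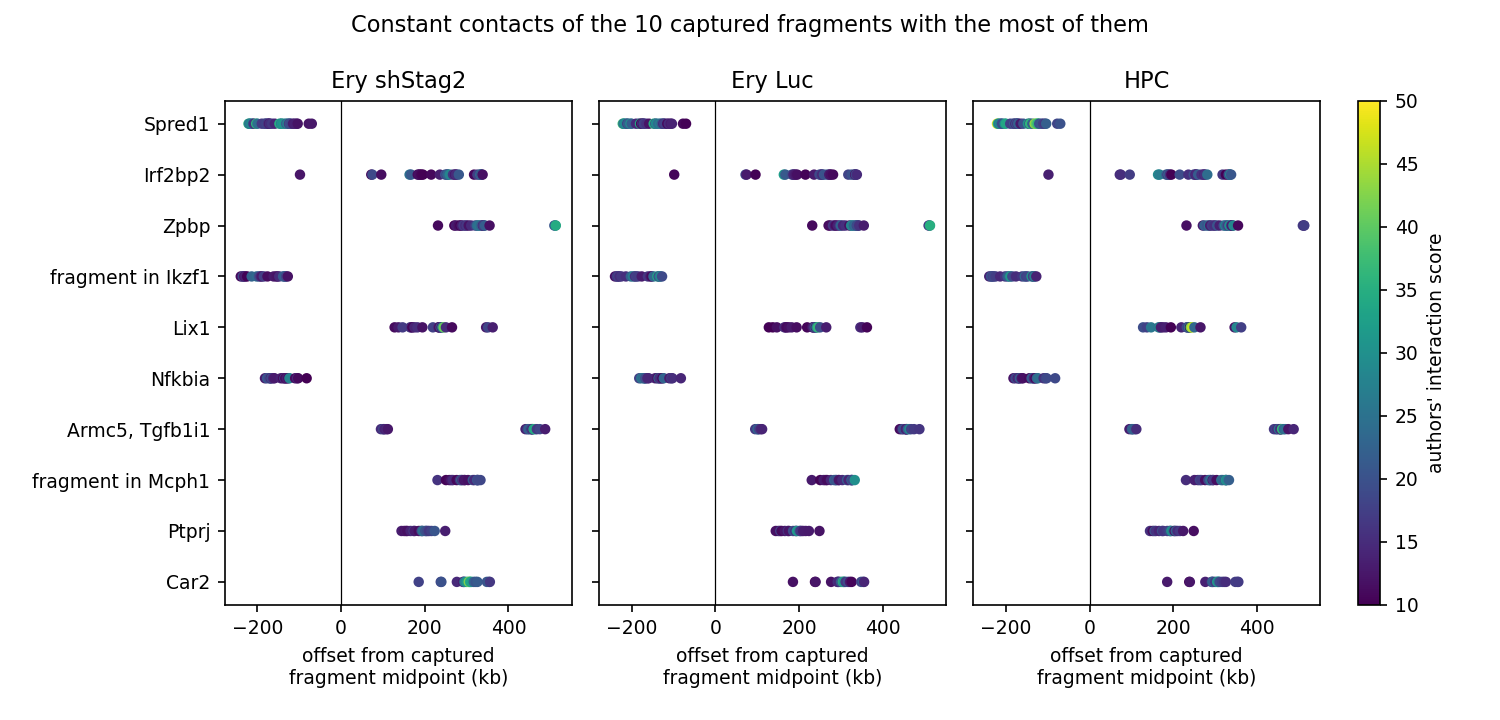
Position of each strong constant contact of the 10 captured fragments with the most of them, as the offset of the other end from the captured fragment's midpoint in kb (negative towards lower coordinates), in Ery shStag2, Ery Luc and HPC from left to right. Colour is the authors' interaction score, which is not scaled between lists. Contacts of 9 fragments lie on 1 side, and those of Irf2bp2 on both.

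The pair with the highest lowest score linked Lix1 (chr17:17399098-17403981) to a gene-free fragment at chr17:17645323-17647864, 245.1 kb away. Its scores were 40.9 in Ery shStag2, 36.61 in Ery Luc and 46.13 in HPC. A captured fragment on chromosome 10 (chr10:111500555-111502178) held no protein-coding gene start or end and lay 2.41 kb from the nucleosome assembly gene Nap1l1. It gave 3 of the 10 highest pairs. It reached chr10:111962619-111963683 at 46.89 in Ery shStag2, 36.21 in Ery Luc and 48.65 in HPC. The nearby captured fragment of Phlda1 had 11 constant contacts 413.5 to 462 kb away. Both thus reached over the same range.

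Grk5, a kinase that desensitises G protein-coupled receptors, contacted a fragment inside Grk5 and Zfp950 at 35.97 in Ery shStag2, 36.91 in Ery Luc and 44.34 in HPC, over 192.8 kb. Aldh8a1, an aldehyde dehydrogenase gene, contacted a gene-free fragment 628.3 kb away at 35.81, 37.99 and 53.66 in Ery shStag2, Ery Luc and HPC. Ttc19 and Zswim7, on 1 fragment, contacted Specc1 over 235.7 kb at 35.24, 50.72 and 43.18 in the same lists. The order of the pairs in this paragraph was different in each list. All scored above 35, but they were chosen by their lowest score, so high scores in every list follow from the choice.

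The farthest members started at Irs1, the insulin receptor substrate, and Igfbp5, which binds insulin-like growth factors. Irs1 reached a fragment in Nyap2 977.8 kb away at scores of 16.82 in Ery shStag2, 14.89 in Ery Luc and 15.39 in HPC. Igfbp5 reached a gene-free fragment 952 kb away at 22.47, 25.67 and 11.2 in Ery shStag2, Ery Luc and HPC. Both farthest sets had a directly adjacent fragment among the members. At the score minimum the difference between member and non-member was small. The Ncoa2 pair over 215.2 kb had 11.84 in Ery shStag2, 16.38 in Ery Luc and 10 in HPC and was a member. The Ncoa2 pair over 207.1 kb had 10.11, 10.95 and 9.99 in the same lists and was not.

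Some other ends were shared by many promoters. A fragment in Vars, the valyl-tRNA synthetase gene (chr17:35003462-35009085), was a constant contact of 8 captured fragments 54.03 to 155.4 kb away. Among them was the fragment of Csnk2b, the regulatory subunit of casein kinase 2, and Gpank1, at 17.47 in Ery shStag2, 23.48 in Ery Luc and 24.5 in HPC. The Ly6g5b fragment scored 19.87, 23.63 and 28.42 in these lists, and the Ddah2 fragment 10.52, 15.56 and 17.35. A gene-free fragment at chr17:35739807-35741020 was shared by 5 captured fragments. That of Flot1 and Ier3 scored 33.64 in Ery shStag2, 25.72 in Ery Luc and 30.4 in HPC, and that of the tubulin gene Tubb5 21.22, 18.88 and 16.94. Such sharing was not common, since 2133 of the 2465 other ends belonged to a single captured fragment.

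Hox genes, the clustered homeobox genes of body patterning and blood progenitors, were examined as a family after their values had been seen. Of 33 Hox genes on captured fragments 13 had a constant contact (39.39%, 22.91% to 57.86%), against the background of 5.6%. The fragment named by Hoxb8 alone had 17 contacts 258.1 to 584.8 kb away, with median scores of 16.52 in Ery shStag2, 16.65 in Ery Luc and 14.12 in HPC. Another fragment, of Hoxb7 and Hoxb8, had 3 contacts 246.9 to 277.9 kb away. In the Hoxc cluster the fragments of Hoxc9, Hoxc8, Hoxc6 and Hoxc5 shared a gene-free other end at chr15:103173808-103175875. Hoxc8 scored highest there, at 22.44 in Ery shStag2, 32.71 in Ery Luc and 36.89 in HPC, and Hoxc5 scored 20.81, 17.06 and 26.98. All contacts of the Hoxb and Hoxc fragments lay at higher coordinates. These genes are neighbours and share other ends, so their counts are not independent.

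The same holds for the other families, chosen in this way too. Clustered histone genes had a constant contact in 18 of 56 (32.14%, 20.29% to 45.96%). The fragment of H2ac10, H3c8 and H4c8 had 12 contacts within 98.71 kb, at median scores of 29.64 in Ery shStag2, 27.13 in Ery Luc and 26.93 in HPC. Of 796 olfactory receptor genes, known for their expression in the nose, 3 had one (0.377%, 0.0778% to 1.10%).

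Gene lists of the tissue were then counted, by whether the fragment with a gene's start or end had a constant contact. Among the list genes described below, the fragments of Car2, Alad, Ikzf1, Ikzf2, Lmo2, Egr3 and Ier3 held no start from the promoter windows. Those windows thus do not place the contacts of these genes at a promoter. Erythroid transcription factors had one in 6 of 17 genes on captured fragments (35.29%, 14.21% to 61.67%), stem and progenitor regulators in 7 of 24 (29.17%, 12.62% to 51.09%) and immediate-early genes in 6 of 25 (24%, 9.36% to 45.13%). For these 3 lists the lower bound lay above the background of 5.6%. Lmo2 and Lyl1 count in both of the first 2 lists, which are therefore not independent. Red cell membrane and globin genes had one in 4 of 21 (19.05%, 5.45% to 41.91%) and haem and iron genes in 3 of 23 (13.04%, 2.78% to 33.59%). None was found for 22 lymphoid genes, 17 genes of cohesin and its partners, 18 replication licensing genes and 20 chromatin regulators mutated in myeloid disease. Counts of 0 of 22, 17, 18 and 20 allow shares up to 15.44%, 19.51%, 18.53% and 16.84%.

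The other lists were near the background. Ribosomal protein genes had one in 4 of 42, cytokine signalling genes in 2 of 29, mitosis and spindle genes in 2 of 24, and genes of MYC partners and nuclear receptors in 2 of 23. Myeloid genes had one in 1 of 16, mast cell and basophil genes in 1 of 15, megakaryocyte and platelet genes in 1 of 19, and developmental transcription factors silent in blood in 1 of 24. At a score minimum of 7 the background was 14.2%. The lists just named then ranged from 4.17% for the developmental factors to 28.57% for ribosomal protein genes. Where only a gene start names the fragment, the erythroid factors came to 4 of 13 and the stem and progenitor regulators to 5 of 22. The immediate-early genes came to 4 of 19 and the red cell genes to 1 of 12, against 5.18% of 13488 genes. These starts came from the promoter windows, without chromosome 18 and without some genes such as Car2. The part of such missing starts in the lower counts was not tested.

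**Figure D4:**
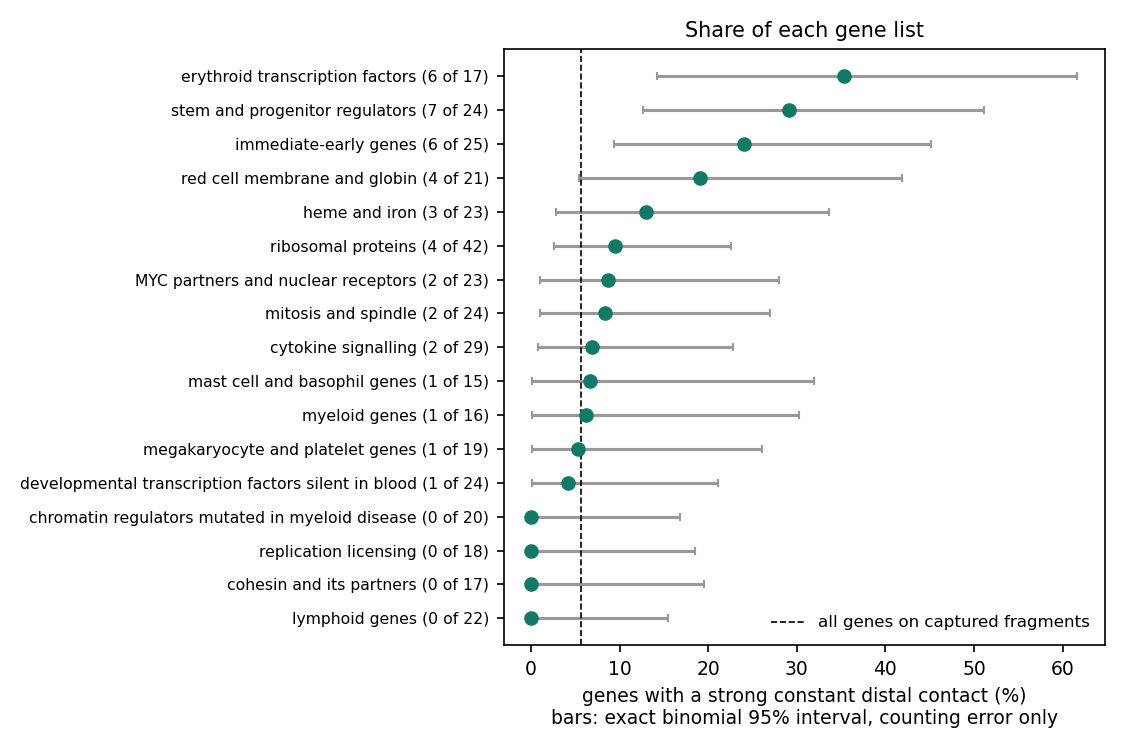
Share of the genes of each list, among those with a start or end on a captured fragment, that had at least 1 strong constant distal contact. Points are shares, bars exact binomial 95% intervals and the dashed line is the share of all 16720 genes (5.6%). Erythroid transcription factors are at the top with 6 of 17, and 4 lists have none.

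Among erythroid factors, Klf13, a GC-box binding KLF protein, had 6 contacts at higher coordinates. Its highest ranked pair, over 124.5 kb, scored 18.89 in Ery shStag2, 16.83 in Ery Luc and 16.16 in HPC. Lyl1 encodes a bHLH partner of the blood stem cell programme, and its fragment also holds a start or end of Nfix and of Trmt1, so the contacts cannot be assigned to 1 gene. They lay 107.5 to 125.3 kb away, with 24.46, 23.14 and 15.73 in Ery shStag2, Ery Luc and HPC for the nearest. A second captured fragment of Ikzf1, at the edge of the gene (chr11:11681896-11685640), had 6 contacts 111.7 to 132.2 kb away, the highest ranked at 16.85, 23.94 and 14.88 in those lists. Their other ends were gene-free and were also constant contacts of the fragment inside Ikzf1 described above. Foxo3, a forkhead factor of red cell maturation, reached Sesn1 456.4 kb away at 20.95, 17.49 and 19.73. Lmo2, the bridging protein of the GATA1 and TAL1 complex, had 2 contacts up to 80.49 kb away, the higher ranked at 14.39, 14.5 and 21.99 in Ery shStag2, Ery Luc and HPC. Myb, a driver of progenitor proliferation, had 1 contact in Hbs1l 178 kb away, close to the minimum at 10.03 in Ery shStag2, 11.92 in Ery Luc and 11.09 in HPC. Of 59 distal contacts listed for the Myb fragment in any list, 21 were in all 3 and only this one was strong in all.

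Among red cell genes, Car2 stood out by number. Car2 encodes carbonic anhydrase 2, which interconverts carbon dioxide and bicarbonate in red cells. Its 18 contacts lay 185.4 to 355.5 kb away at higher coordinates, outside every protein-coding gene, and 11 adjacent fragments formed a stretch of 38.48 kb. The contact with the highest lowest score, at 305 kb, scored 41.95 in Ery shStag2, 36.67 in Ery Luc and 31.28 in HPC. The lowest, median and highest scores were 12.35, 20.81 and 42.26 in Ery shStag2, 10.43, 15.17 and 36.67 in Ery Luc, and 10.34, 17.04 and 32.81 in HPC. The contacts thus reached 10 or more in progenitors as well as after EPO, which the rule fixed.

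Alad, the gene of an early enzyme of haem synthesis, had 5 contacts in Fkbp15 and Prpf4, the highest ranked at 13.58 in Ery shStag2, 10.92 in Ery Luc and 13.48 in HPC. Fth1, ferritin heavy chain, had 2 contacts within 60.09 kb, the higher ranked at 15.44, 11.82 and 14.63 in the same lists.

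Of the stem and progenitor regulators, Ikzf2, which encodes HELIOS, had the most with 10 contacts 336.7 to 447.4 kb away, the highest ranked at 22.2 in Ery shStag2, 27.08 in Ery Luc and 23.99 in HPC. Bcl2, the apoptosis inhibitor, had 5 contacts, the highest ranked at 20.89, 17.8 and 28.93 in those lists. One of the Bcl2 other ends holds the hairpin gene Mir3473f. Such miRNA genes were on 7 of the 2465 other ends of constant contacts (0.284%) and on 131 of 81184 distal other ends in all (0.161%). Mycn had 2 contacts 533.6 and 616.2 kb away, the nearer at 18.39, 20.64 and 16.34 in Ery shStag2, Ery Luc and HPC. Sox4 reached Cdkal1 over 883.2 kb at 22.57, 16.41 and 13.23, and Hlf reached Stxbp4 over 229.9 kb at 17.91, 12.76 and 18.58 in the same lists.

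Among immediate-early genes, whose transcription follows within minutes of a signal, Fosl2, an AP-1 subunit, had 17 contacts 399.1 to 573.8 kb away. The highest ranked, in Babam2, scored 34.48 in Ery shStag2, 19.43 in Ery Luc and 28.52 in HPC. Jun, another AP-1 subunit, had 4 adjacent contacts 814.7 to 822.3 kb away in Fggy. They scored 23.88 to 33.73 in Ery shStag2, 11.85 to 24.46 in Ery Luc and 10.57 to 17.3 in HPC, without a replicate check. Fos had 3 contacts in Tmed10 and Nek9, the highest ranked at 13.46, 15.74 and 15.32 in Ery shStag2, Ery Luc and HPC. Dusp6 and Egr3 had 1 each, over 312.8 and 211.5 kb. Ier3 shared its fragment with Flot1 and had 6 contacts within 88.7 kb.

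**Figure D5:**
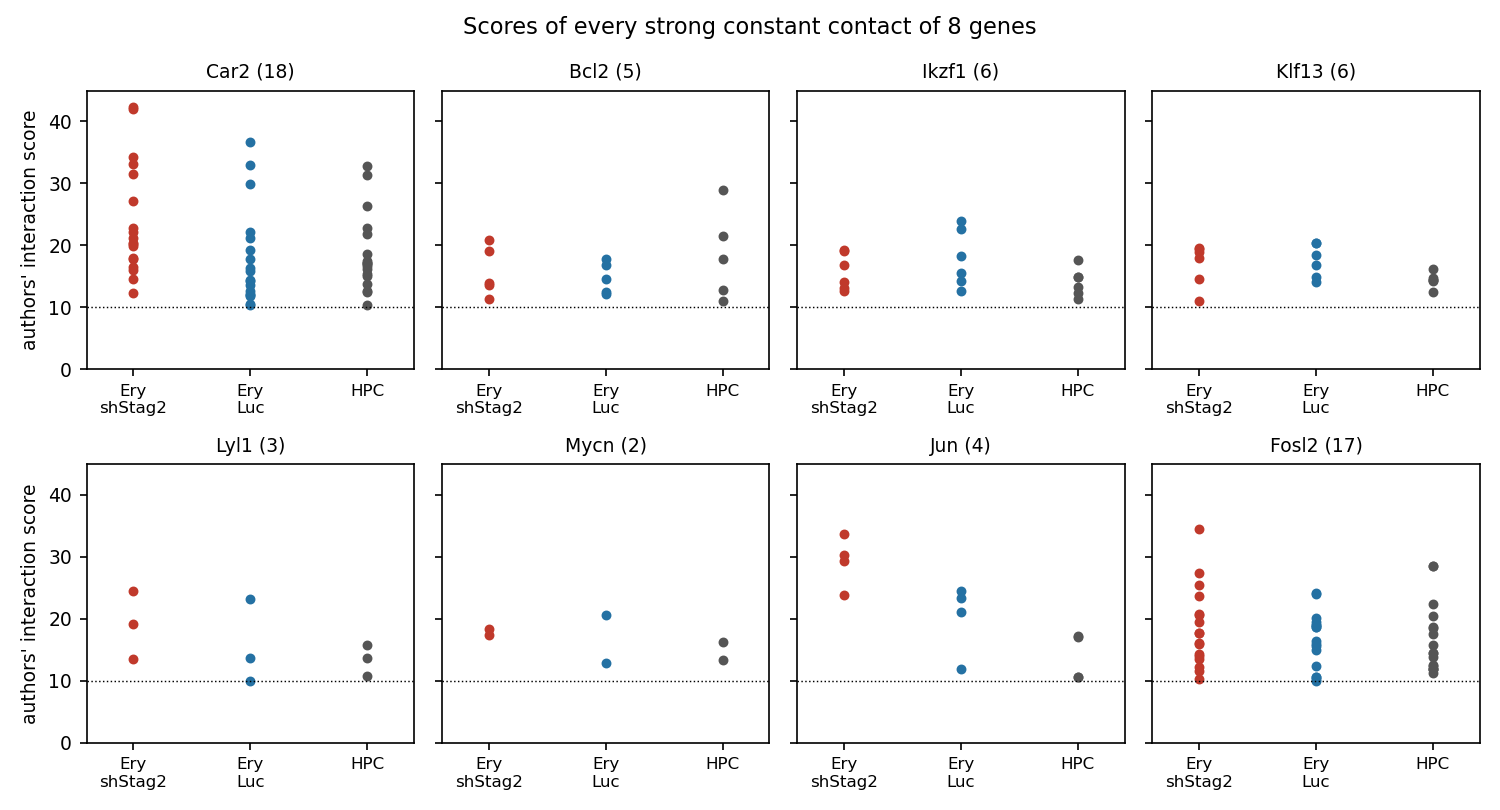
Authors' interaction score of every strong constant contact of 8 list genes, in Ery shStag2, Ery Luc and HPC, 1 point per contact and list, with the number of contacts after each name. The dotted line is the minimum of 10 that chose the members, scores are not scaled between lists, and the Car2 contacts reach 42.26 in Ery shStag2.

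The captured fragments with constant contacts were rich in contacts of other kinds too. They had a median of 22 listed contacts in Ery shStag2, 21 in Ery Luc and 22 in HPC, against 3, 3 and 2 for the other 20030 captured fragments, although the members themselves are part of this count. Contacts with another captured fragment at 50 kb to 1 Mb, which the rule left out, were listed for 60.99%, 58.87% and 65.22% of the 992 fragments in Ery shStag2, Ery Luc and HPC, against 41.58%, 40.86% and 44.3% of the others. Contacts under 50 kb were listed for 31.05%, 31.85% and 46.07%, against 12.27%, 13.69% and 19.71%. Contacts over 1 Mb were listed for 30.34%, 24.5% and 3.43%, against 18.55%, 16.94% and 1.73%. The small share over 1 Mb in HPC was found in both sets of fragments. Contacts between chromosomes showed no such excess, with 31.65%, 25.1% and 1.51%, against 32.68%, 28.92% and 1.09%. Fragment length was alike, at medians of 5772 and 5799 bp.

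Fragments with a constant contact often held changing contacts too. Of the changing contacts, 1705 lay on such fragments and 3551 on other captured fragments. Of the 992 fragments 658 (66.33%, 63.29% to 69.27%) also had a distal contact at 10 or more in at least 1 list and missing from at least 1, against 2221 of the other 20030 captured fragments (11.09%, 10.66% to 11.53%). The fragments with constant contacts also had more listed contacts, as given above, and the part of that in this difference was not tested. A contact strong in both Ery lists and missing from HPC was found on 88 of the 992 (8.87%, 7.18% to 10.82%), against 0.759% of the others. One strong in HPC and missing from both Ery lists was found on 116 (11.69%, 9.76% to 13.86%), against 1.34%. A contact strong in Ery Luc and HPC but missing from Ery shStag2 was found on 28 (2.82%, 1.88% to 4.05%), against 0.175%. One strong in Ery shStag2 and HPC but missing from Ery Luc was found on 51 (5.14%, 3.85% to 6.71%), against 0.115%. With 1 list per condition these counts have no replicate check.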

How the data were processed

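Interaction lists were deposited by the authors for 3 conditions, each made from 2 pooled promoter capture Hi-C libraries, with fragment coordinates on mm10, per the submitters' processing notes. The deposited score is the authors' interaction score. Read alignment, the scoring method and depth: not given in the sources used here. A score of 5 was the lowest in any list. Scores filtered and ranked pairs within a list and were not rescaled.

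Pairs were joined by both fragments. A captured fragment took the names of protein-coding genes (GRCm38.p6) that begin or end within it. That table holds no exons. Shares carry exact Clopper-Pearson 95% intervals for counting error only (Python 3.11.15, pandas 2.3.3, numpy 2.4.6, SciPy 1.17.1). The selection was checked on simulated data. Promoter windows for chromosome 18 were not used here. The 15 RNA count tables and the chromatin immunoprecipitation samples were not used.

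Members, the 17 gene lists and the naming rule were chosen with earlier results of these data known. The rule names the 10 pairs with the highest lowest score, the 5 farthest, 5 on each side of the minimum, the 10 captured fragments with the most members, the 5 most shared other ends, and list genes by their highest lowest score. Other genes and the families were chosen after their values were seen. Some genes of the lists and families are not reported here.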

Additional observations from a re-analysis of the deposited data

How the results depend on the processing

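With a score minimum of 7 there were 9006 contacts on 2460 captured fragments with 2374 genes, and 82 list genes in place of 38. The median distance was 189.7 kb, 81.76% had a neighbour in all lists and 34.73% a shared other end. At a minimum of 15 there were 670 contacts, 293 fragments and 281 genes, with 213.1 kb, 95.97% and 18.66%. From 100 kb upwards the median was 224 kb and the shared share 24.05%, and up to 500 kb the median was 189.9 kb. With captured other ends admitted there were 1670 fragments and 1631 genes, with 187.2 kb, 78.16% and 32.03%. With adjacent other ends admitted in the Ery lists there were 4365 contacts, 93.72% with a neighbour. Without the HPC list the median was 212.3 kb and the shared share 30.72%, without Ery Luc the shared share was 28.29%, and without Ery shStag2 the median was 187.7 kb. Named by a start only, 22 list genes had a contact, with starts missing for chromosome 18 and for some genes such as Car2. Counts for single gene lists moved by over 1.5 times in 19 of 34 cases. Among them were ribosomal protein genes, with 12 at a minimum of 7 and 1 by start only in place of 4. Erythroid factors had 10 at 7 in place of 6, and red cell genes 1 by start only in place of 4. At 7 the ribosomal protein genes came to 28.57% of 42 and the erythroid factors to 58.82% of 17, against 14.2% of all 16720 captured genes. Of the values over all contacts or all lists, the other 39 stayed within 1.5 times for counts or within the interval for shares and the median, and the upstream share did so under every alternative run. The cause of these shifts was not tested, beyond the wider or narrower selection itself. No paired analysis was possible because each promoter list pools its libraries and no test was made. The alternatives on RNA counts were not run. Unknown depth limits what a missing pair means.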
